A study of Mus musculus with 2 samples.

Results

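The stefin A cystatin genes of mouse chromosome 16 were followed in single cells of the inflamed lung. The 6 genes described were Stfa2, Stfa2l1, Stfa3, Cstdc4, Cstdc5 and Csta3, found by symbol among the 32285 genes of the count matrices. They were chosen with their levels in these neutrophils and their difference between the libraries already known, so those values are a description and carry no test. Droplet counts (10x Genomics 3′ chemistry, version 3) came from digested left lower lobes of outbred ICR mice, all male and aged 6 to 8 weeks. One group received lipopolysaccharide (LPS), the endotoxin of Gram-negative bacteria that draws neutrophils into the lung. The other received LPS and, by injection into the peritoneum, miconazole (MCZ), an azole antifungal drug. For miconazole the sample's own label gives 0.2 mg/kg, whereas the treatment protocol gives 1 mg/kg. There was no group without LPS. Each group was 1 library that pooled the lungs of all its mice, which leaves no replicates to test, and the drug's effect cannot be told apart from differences between the libraries or the pooled mice.

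Stefins are small cystatins that stay in the cytosol. They block papain-like cysteine proteases, such as cathepsins B, H, L and S, by occupying the active site cleft without being cut. Mice carry an expanded stefin A family where humans have a single gene, and mouse neutrophils and their bone marrow precursors are known for transcribing several of its members. The targets of the individual mouse proteins are not all known, so the 6 genes are described below by their place in the locus.

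The locus spanned 335 kb of chromosome 16 (GRCm38, the mm10 build, GENCODE vM21 annotation), from 36119946 to 36455392. It held 10 protein-coding genes, all of the stefin A family, and the 6 genes described fell into 2 groups of 3 on opposite strands. On the plus strand lay Stfa2l1 (36156811 to 36161953), Cstdc4 (36184212 to 36188111) and Csta3 (36210403 to 36217788). On the minus strand lay Cstdc5 (36359382 to 36367748), Stfa2 (36403992 to 36408457) and Stfa3 (36450537 to 36455392). Each had at most 3 exons. The 3 genes of each strand were neighbours, so a pattern by strand cannot be told apart from a pattern by position in the locus. The near-identical copies sat on opposite strands. The longest annotated transcripts of Stfa2 and Stfa2l1 were identical at 95.7% of aligned bases, and those of Cstdc5 and Csta3 at 89.8%, whereas pairs on the same strand were identical at 68.8% to 81.0%.

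**Figure D1:**
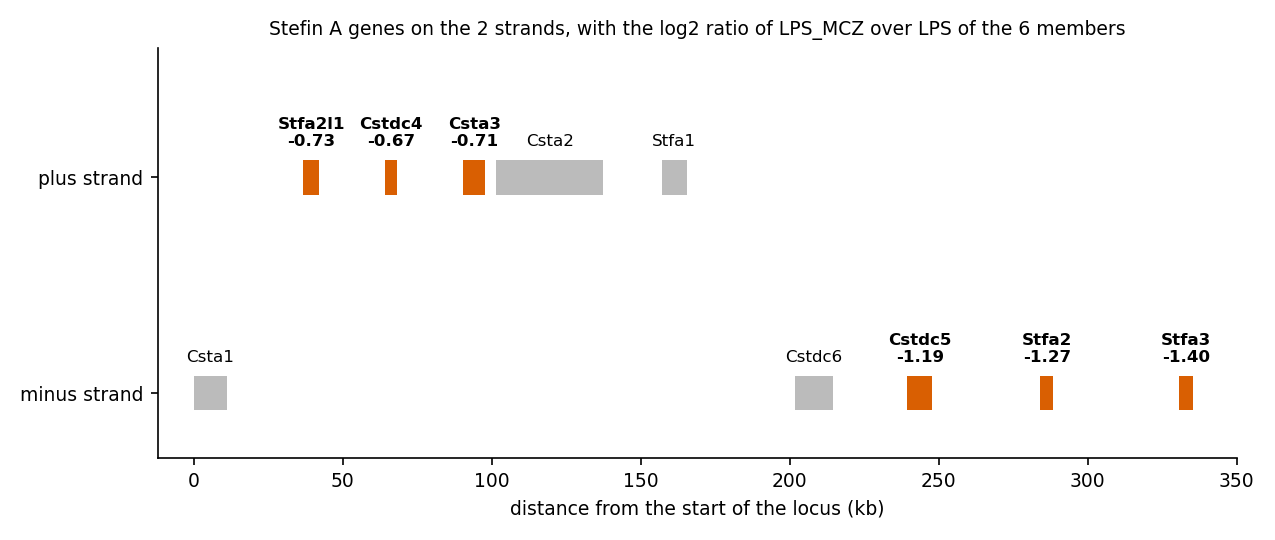
The 10 stefin A genes along the locus, with distance from its start in kb on the horizontal axis and the strand on the vertical axis. The 6 genes described are in orange, each with its log2 ratio of LPS_MCZ over LPS in neutrophil-like cells, and the 3 on the minus strand carry the lower ratios (−1.19 to −1.40, against −0.67 to −0.73).

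The promoters are shown because the 6 genes were read together and their starts share sequence. All 6 had 1 entry in the RefSeq promoter table (GRCm38.p6). The stretch from 110 bases before to 30 bases after the RefSeq start is given 5′ to 3′ on the gene's own strand. Capitals mark runs of at least 10 bases found in all 6 windows of 300 bases (250 before to 50 after the start). The run CACACTCATT of Csta3 lies before the stretch shown, and the last run of Cstdc5 goes on past its end.
Stfa2l1, chr16:36156701-36156840, plus strand: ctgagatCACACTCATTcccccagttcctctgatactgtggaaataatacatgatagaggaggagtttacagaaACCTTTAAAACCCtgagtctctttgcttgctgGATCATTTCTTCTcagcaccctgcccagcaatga
Cstdc4, chr16:36184102-36184241, plus strand: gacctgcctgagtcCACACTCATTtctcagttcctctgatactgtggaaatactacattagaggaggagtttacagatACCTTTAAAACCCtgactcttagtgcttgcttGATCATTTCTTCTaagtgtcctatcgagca
Csta3, chr16:36210293-36210432, plus strand: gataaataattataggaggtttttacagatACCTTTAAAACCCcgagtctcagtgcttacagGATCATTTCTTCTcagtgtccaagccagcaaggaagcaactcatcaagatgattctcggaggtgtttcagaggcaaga
Cstdc5, chr16:36367541-36367680, minus strand: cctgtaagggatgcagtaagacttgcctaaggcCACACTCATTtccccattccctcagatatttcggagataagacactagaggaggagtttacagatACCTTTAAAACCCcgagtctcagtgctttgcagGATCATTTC
Stfa2, chr16:36408334-36408473, minus strand: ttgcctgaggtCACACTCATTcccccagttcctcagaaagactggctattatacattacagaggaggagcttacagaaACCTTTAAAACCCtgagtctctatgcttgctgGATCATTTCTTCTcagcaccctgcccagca
Stfa3, chr16:36455363-36455502, minus strand: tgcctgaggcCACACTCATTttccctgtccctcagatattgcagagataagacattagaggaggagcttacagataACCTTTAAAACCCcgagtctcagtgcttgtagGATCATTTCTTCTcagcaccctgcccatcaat

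Of 32851 promoter windows in the table, searched on both strands, 9 held ACCTTTAAAACCC, 10 held GATCATTTCTTCT and 37 held CACACTCATT. Besides the 6 genes, the first of these runs was in the windows of Stfa1, Cstdc3 and Gm7260. It began 32 to 36 bases before the RefSeq start in Stfa2, Cstdc4, Stfa3 and Stfa2l1 and 12 bases before it in Cstdc5. In Csta3 it began 80 bases before the RefSeq start, the farthest of the 6. The GENCODE annotation used for the locus has Stfa2 and Cstdc5 start farther upstream, at 36408457 and 36367748. By that annotation the run lies inside both genes, as does the whole stretch shown for Cstdc5. The 6 letters TTTAAA inside that run were in 13.2% of all windows, and TATAAA, found in 13.6% of all windows, was in none of the 6. GAGGAA was in the windows of 5 of the 6 (all but Csta3) and in 28.3% of all windows. As with the transcripts, the most similar windows crossed the strands, at 92.9% of aligned bases for Stfa2 and Stfa2l1 and 92.6% for Cstdc5 and Csta3.

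The filters left 12072 LPS cells and 8312 cells of the group with miconazole (LPS_MCZ below), at a median of 5809 and 6180.0 UMIs (unique molecular identifiers, 1 per captured transcript) per cell. Cells were clustered without the 10 stefin A genes, so that these genes did not define the groups in which they are read. Neutrophil-like cells were 8 of the 28 clusters, with 9 to 11 of the 11 neutrophil markers raised in each, and numbered 7488 (62.0% of LPS cells) and 5707 (68.7% of LPS_MCZ cells). The neutrophil clusters divided by library: cluster 1, the largest in LPS, held 26.6% of the LPS and 1.37% of the LPS_MCZ neutrophil-like cells, and cluster 6, the largest in LPS_MCZ, held 2.95% and 36.4%. The libraries shared 243 cell barcodes, at a median of 723 and 995 UMIs. Leaving these cells out moved the summed log2 ratio below from −0.859 to −0.858.

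The 6 genes together made up 0.455% of all UMIs of the LPS library (412523) and 0.261% of those of the LPS_MCZ library (178828). Levels below are CPM, the UMIs of a gene per 1000000 UMIs of the same cells. UMIs were counted at transcript 3′ ends and are not divided by length, so levels are compared within a gene. The 95% intervals in brackets hold counting error alone and leave out variation between mice. Those on UMIs also leave out variation between cells.

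All 6 genes were lower in neutrophil-like cells of the LPS_MCZ library. Their summed level was 8129 CPM [8103, 8155] in LPS against 4480 CPM [4459, 4502] in LPS_MCZ, 1.81-fold lower (log2 ratio −0.86 [−0.87, −0.85]). All 6 were lower by more than 0.5 on the log2 scale, a size reached by 4.35% of the 10609 genes with at least 50 UMIs in this class; 12.7% were higher by as much. Among the 680 genes of at least 200 CPM on average, 5.88% were lower by more than 0.5. As the genes were chosen with this contrast known, nothing is read from their count. The median ratio over all 10609 genes was 0.12, and the standard deviation 0.38.

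Over the whole class, the plus strand genes differed less between the libraries. Cstdc4, the most abundant of the 6, was at 3266 CPM in LPS against 2047 CPM in LPS_MCZ, 1.595-fold lower (−0.67 [−0.69, −0.66]). Stfa2l1 was at 1972 and 1192 CPM, 1.65-fold lower (−0.73 [−0.74, −0.71]). Csta3, the scarcest, was at 64.9 and 39.4 CPM, 1.63-fold lower (−0.71 [−0.81, −0.63]). The interval of Csta3 overlapped those of Cstdc4 and Stfa2l1, while the latter 2 lay apart by a small step.

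Over the whole class, the 3 minus strand genes described were lower by more, unlike Cstdc6 of the same strand (−0.47 [−0.57, −0.38]). Cstdc5 was at 1782 CPM in LPS against 780.4 CPM in LPS_MCZ, 2.28-fold lower (−1.19 [−1.21, −1.17]). Stfa2 was at 741.6 and 307.8 CPM, 2.40-fold lower (−1.27 [−1.30, −1.24]). Stfa3 was at 302.4 and 114 CPM, 2.63-fold lower (−1.40 [−1.45, −1.35]). Summed, the plus strand genes were 1.62-fold lower (−0.69 [−0.70, −0.68]) and the minus strand genes 2.35-fold lower (−1.23 [−1.25, −1.22]). The division by strand was noticed after these values were seen. All 3 minus strand ratios lay below all 3 plus strand ratios in each of the 4 neutrophil states described below, but in only 2 of the 8 clusters (4 and 7). Other than granule-gene-high, which is cluster 7 alone, these states were mostly different clusters in the 2 libraries. In cluster 2, with 46 LPS_MCZ cells, Stfa2 was the least lowered (−0.30) and Csta3 the most (−1.57, from 4 LPS_MCZ UMIs). In cluster 3 Stfa3 was at −0.78 and Cstdc4 at −0.94, and in cluster 5 Csta3 had the lowest ratio (−0.97). The division thus held for the class and the states and not within most clusters.

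Counted from the lowest ratio of all 10609 genes, Stfa3 was the 20th gene, Stfa2 the 31st and Cstdc5 the 38th, followed by Stfa2l1 at rank 166, Csta3 at 178 and Cstdc4 at 219. Among the 680 more abundant genes the minus strand genes were at ranks 2, 4 and 5, with the acute phase gene Orm1 at rank 3 and the interferon-induced chemokine gene Cxcl10 at rank 6. Rank 1 was BC018473, at 1598 CPM in LPS against 5.46 CPM in LPS_MCZ. BC018473 was also among the leading genes of the neutrophil clusters 0, 1 and 2, which were mostly LPS cells.

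The neutrophil clusters were grouped into states by marker lists. Granule-gene-high cells (cluster 7) carried transcripts of secondary and tertiary granule proteins such as Camp, Ngp and Ltf, which mark younger neutrophils. Mature chemokine-low cells (clusters 2 and 4) carried Retnlg and Cxcr2. Chemokine-high cells (clusters 0, 1 and 5) carried Ccl3, Ccl4, Cxcl2 and Tnf, as activated neutrophils do, and clusters 3 and 6 passed no list's limit and are called intermediate. The limit (0.5 standard deviations above the mean of the neutrophil clusters) was set after the clusters were seen, and cluster 1 passed it by little, at 0.542. Cluster 4 also passed the limit on the granule-gene-high list (0.81), and was assigned by its higher score on the mature chemokine-low list (1.05). The interferon-response list was not used to assign states. Clusters 0 and 1, which held 985 and 1994 of the 3438 LPS cells of the chemokine-high state, scored at least as high on that list (1.70 and 0.95) as on the chemokine list (1.69 and 0.54). The chemokine-high state held 45.9% of LPS and 30.9% of LPS_MCZ neutrophil-like cells, and the intermediate state 20.8% and 43.9%. Within 3 of the states the libraries mostly held different clusters. Cluster 3 gave 1340 of 1561 intermediate LPS cells, and cluster 6 gave 2076 of 2504 in LPS_MCZ. Cluster 2 gave 1091 of 1374 mature chemokine-low LPS cells, and cluster 4 gave 763 of 809 in LPS_MCZ. Cluster 5 gave 459 of the chemokine-high LPS cells, and 1622 of 1765 in LPS_MCZ.

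The order of the states differed between the plus and the minus strand genes. Csta3 was highest in chemokine-high cells, at 100.4 CPM in LPS against 81.1 CPM in LPS_MCZ, followed by the intermediate state at 87.0 and 33.3 CPM. It was at 32.8 and 18.2 CPM in mature chemokine-low cells and at 16.03 and 7.37 CPM in granule-gene-high cells. Csta3 thus followed the same order of states in both libraries, and the log2 ratio of granule-gene-high over chemokine-high cells was −2.57 [−2.89, −2.41] in LPS and −3.29 [−3.92, −3.03] in LPS_MCZ.

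Cstdc4 was at 3678 and 2599 CPM in chemokine-high cells and at 4843 and 2443 CPM in intermediate cells. Its lower levels were 2699 and 1426 CPM in mature chemokine-low cells and 1860 and 886.5 CPM in granule-gene-high cells. Like Csta3, it was lowest in the granule-gene-high state of both libraries. Stfa2l1 had its highest levels in intermediate cells, at 3225 CPM in LPS against 1498 CPM in LPS_MCZ, and its lowest in granule-gene-high cells, at 1439 and 585.5 CPM. Its chemokine-high levels of 1950 and 1363 CPM lay above the mature chemokine-low levels of 1561 and 831.1 CPM.

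Stfa3 went the other way. It was lowest in chemokine-high cells, at 155.2 CPM in LPS against 63.5 CPM in LPS_MCZ. The other states of the LPS library lay close together, at 411.5 CPM in granule-gene-high, 401 CPM in intermediate and 379.5 CPM in mature chemokine-low cells. In LPS_MCZ they were at 111, 133.5 and 154.3 CPM. The mature chemokine-low level was above the chemokine-high level by 1.28 on the log2 scale in LPS [1.22, 1.36] and by 1.27 in LPS_MCZ [1.14, 1.43].

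Cstdc5 and Stfa2 were also lowest in chemokine-high cells of both libraries. Cstdc5 was at 1186 and 551.1 CPM there and at 2652 and 949.8 CPM in intermediate cells, its highest level. In mature chemokine-low cells it was at 2038 and 891.4 CPM, and in granule-gene-high cells at 1913 and 650.1 CPM. Stfa2 was at 499.6 and 222.5 CPM in chemokine-high cells and at 1228 and 370.1 CPM in intermediate cells. Its mature chemokine-low levels were 795 and 345 CPM, and its granule-gene-high levels 740.5 and 265.3 CPM. Both genes were at their highest in the intermediate state of each library.

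**Figure D2:**
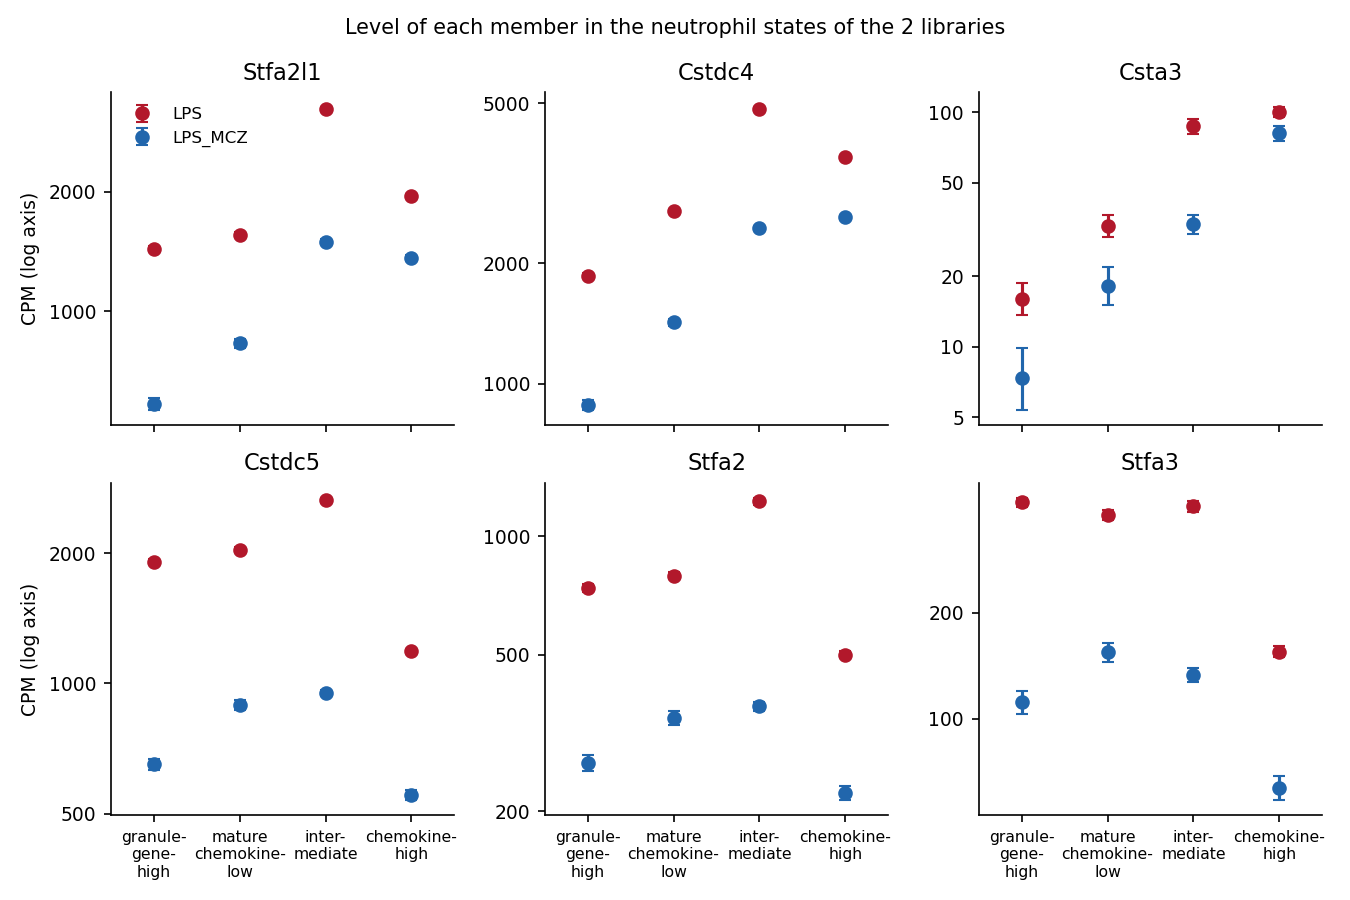
Level of each of the 6 genes (CPM, log axis, a range of its own in each panel) in the 4 neutrophil states of the LPS (red) and LPS_MCZ (blue) libraries; points are summed cells of 1 library and bars are 95% counting intervals. The upper row holds the plus strand genes, lowest in granule-gene-high cells, and the lower row the minus strand genes, lowest in chemokine-high cells.

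The makeup of the stefin A transcripts therefore differed by state. The minus strand genes gave 48.0% [47.7, 48.4] of the members' UMIs in granule-gene-high cells of the LPS library and 24.3% [24.1, 24.5] in chemokine-high cells. In LPS_MCZ they gave 41.0% [40.2, 41.7] and 17.2% [16.8, 17.5]. The mature chemokine-low state was at 42.8% and 37.9%, and the intermediate state at 34.4% and 26.8%. The minus strand share was lower in LPS_MCZ in each state and in 7 of the 8 clusters, cluster 0 being the exception at 14.0% [13.6, 14.4] in LPS and 14.5% [13.1, 16.01] in LPS_MCZ. The intervals overlapped there and in cluster 1, at 27.5% [27.2, 27.8] and 26.1% [24.4, 27.9].

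In contrast, the summed level of the 6 genes followed the states only loosely. It was highest in intermediate cells, at 12436 CPM in LPS against 5427 CPM in LPS_MCZ. Mature chemokine-low and chemokine-high cells were nearly level in LPS, at 7505 and 7570 CPM (log2 ratio −0.01 [−0.03, 0.00]), and differed in LPS_MCZ, at 3665 and 4880 CPM (−0.41 [−0.44, −0.39]). This contrast turned around in LPS under several alternatives, for example to 0.23 when S100a8, S100a9 and the 6 genes were left out of the total, and in LPS_MCZ under others. The summed S100a8 and S100a9 level was 110869 CPM in chemokine-high and 246981 CPM in mature chemokine-low cells of LPS, which lowers the CPM of all other genes in the latter. The opposite direction of single genes held more often: over 20 values (10 alternatives in each library) Stfa2, Stfa3 and Cstdc5 were higher in mature chemokine-low cells in all 20, Csta3 was lower in all 20, Cstdc4 was lower in 18 and Stfa2l1 in 14.

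Pairs of genes on the same strand varied together across the neutrophil clusters more closely than pairs on opposite strands. The members of the same strand are also neighbours in the locus, so strand and position cannot be told apart. Over the 8 clusters of each library (16 points), Pearson r of log2(CPM + 1) was 0.70 to 0.93 for the 6 pairs on the same strand and −0.26 to 0.64 for the 9 pairs on opposite strands. The highest values were 0.93 for Stfa2l1 and Cstdc4, 0.92 for Stfa3 and Cstdc5, and 0.90 for Stfa2 and Cstdc5. The near-identical pairs were below these, at 0.64 for Stfa2 and Stfa2l1 and −0.05 for Cstdc5 and Csta3. Within a library (8 points) the same-strand pairs had a median of 0.93 in LPS and 0.73 in LPS_MCZ, and the opposite-strand pairs 0.23 and −0.15. The ranges overlapped in LPS (lowest same-strand 0.51, highest opposite-strand 0.58) and not in LPS_MCZ (0.44 and 0.27). Every cluster counted alike, though clusters 0, 1 and 2 held only 65, 78 and 46 LPS_MCZ cells, against 2076 in cluster 6. The points share libraries, and depth and the clustering act on all genes alike, so these values are a description. With the other cell filters and clusterings, the same-strand medians ran from 0.84 to 0.96 and the opposite-strand medians from 0.28 to 0.63, but the ranges overlapped under the stricter cell filter (lowest same-strand 0.74, highest opposite-strand 0.78) and with the highest doublet scores removed (0.58 and 0.65).

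**Figure D3:**
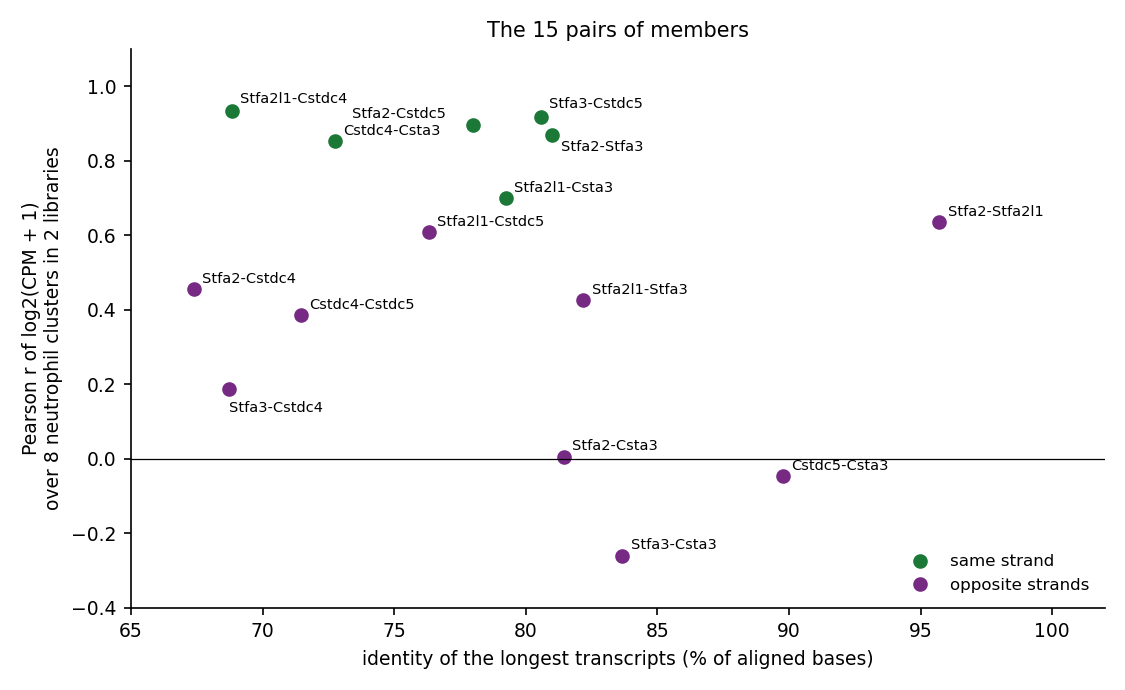
Each of the 15 pairs of the 6 genes, with the identity of their longest transcripts (% of aligned bases) on the horizontal axis and Pearson r of log2(CPM + 1) over 16 points (8 neutrophil clusters in each of 2 libraries) on the vertical axis. Pairs on the same strand (green) lie at 0.70 or above and pairs on opposite strands (purple) at 0.64 or below, including the most identical pair, Stfa2 and Stfa2l1.

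In single cells the medians differed the same way, at lower values. Over pairs, the median r was 0.50 on the same strand and 0.32 on opposite strands in LPS, and 0.43 and 0.22 in LPS_MCZ, and the ranges overlapped, with pairs of the scarce Csta3 low on either side. Among neutrophil-like cells thinned to 2000 UMIs each (7306 and 5574 cells), r of log-transformed counts was 0.55 for Stfa2 and Cstdc5 and 0.54 for Stfa2l1 and Cstdc4 in LPS, against 0.41 for Stfa2 and Stfa2l1 and 0.20 for Cstdc5 and Csta3. In LPS_MCZ these were 0.52, 0.50, 0.34 and 0.22. The most similar transcripts share part of their sequence, which limits how well reads can be assigned. Of runs of 90 bases, Stfa2 and Stfa2l1 shared 8 (2.09% of those of Stfa2), Stfa3 and Csta3 shared none with another annotated transcript, and 12.0% of those of Cstdc5 were shared, with Cstdc6 and Stfa1. In the last 300 bases of Cstdc5, where UMIs are counted, 88 of 211 runs were shared, so its level is less certain than the others. Cstdc5 also overlaps Gm15845 on the other strand.

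Member transcripts were spread unevenly over the neutrophil-like cells. At 2000 UMIs per cell, 78.3% [77.4, 79.3] of LPS and 69.0% [67.7, 70.2] of LPS_MCZ cells had at least 1 UMI of the 6 genes (87.0% and 80.3% without thinning, at median depths of 5648 and 5811 UMIs). In T cell-like cells, which should lack these genes, the shares were 22.9% [20.0, 26.1] and 17.7% [13.4, 22.7] at the same thinned depth (45.5% and 44.9% without thinning, at median depths of 6003 and 7313). Erythroid-like cells, which should also lack them, had far higher shares, at 57.3% [49.0, 65.4] of 150 LPS and 47.4% [37.9, 56.9] of 114 LPS_MCZ cells at that depth. The median neutrophil-like cell had 6 member UMIs in LPS and 3 in LPS_MCZ. The 90th percentile was at 45 and 26, and the highest cell at 329 and 235. The 10% of cells with the most member UMIs held 49.5% and 52.6% of them.

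By gene, and at the thinned depth, Cstdc4 had a UMI in 57.3% of the neutrophil-like cells of LPS and in 49.0% of those of LPS_MCZ, Stfa2l1 in 53.0% and 42.6%, and Cstdc5 in 38.9% and 26.1%. Stfa2 was seen in 21.3% and 12.1%, Stfa3 in 13.4% and 7.03%, and Csta3 in 6.35% and 4.395%. T cell-like cells had Cstdc4 in 13.3% and 9.75% and Csta3 in 0.395% and 0.722%. Each gene was thus seen more often in neutrophil-like than in T cell-like cells. Erythroid-like cells came closer, with Cstdc4 in 42.7% and 31.6%. Their LPS_MCZ share for Stfa3 (7.89%) was above that of the neutrophil-like cells. All 6 genes together had UMIs in 1.29% of the neutrophil-like cells in LPS and in 0.431% in LPS_MCZ.

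Within states and clusters the members stayed lower in LPS_MCZ, with 1 exception. The summed log2 ratio was −1.35 in granule-gene-high, −1.20 in intermediate, −1.03 in mature chemokine-low and −0.63 in chemokine-high cells. In the last state Csta3 differed least (−0.30 [−0.43, −0.19]) and Stfa3 most (−1.28 [−1.41, −1.16]). Across the 8 clusters, the summed level was lower in LPS_MCZ in 7, by 0.58 to 1.36 on the log2 scale (−0.58 to −1.36). Cluster 0 was higher in LPS_MCZ, at 4905 CPM in LPS against 6120 CPM in LPS_MCZ (0.32 [0.26, 0.38]), with Stfa2 at 187.6 and 391.8 CPM (1.06 [0.80, 1.31]). Only 65 LPS_MCZ cells lay in cluster 0, against 985 LPS cells. Cluster 3, with 1340 LPS and 428 LPS_MCZ cells, was at 12289 and 6288 CPM (−0.97).

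**Figure D4:**
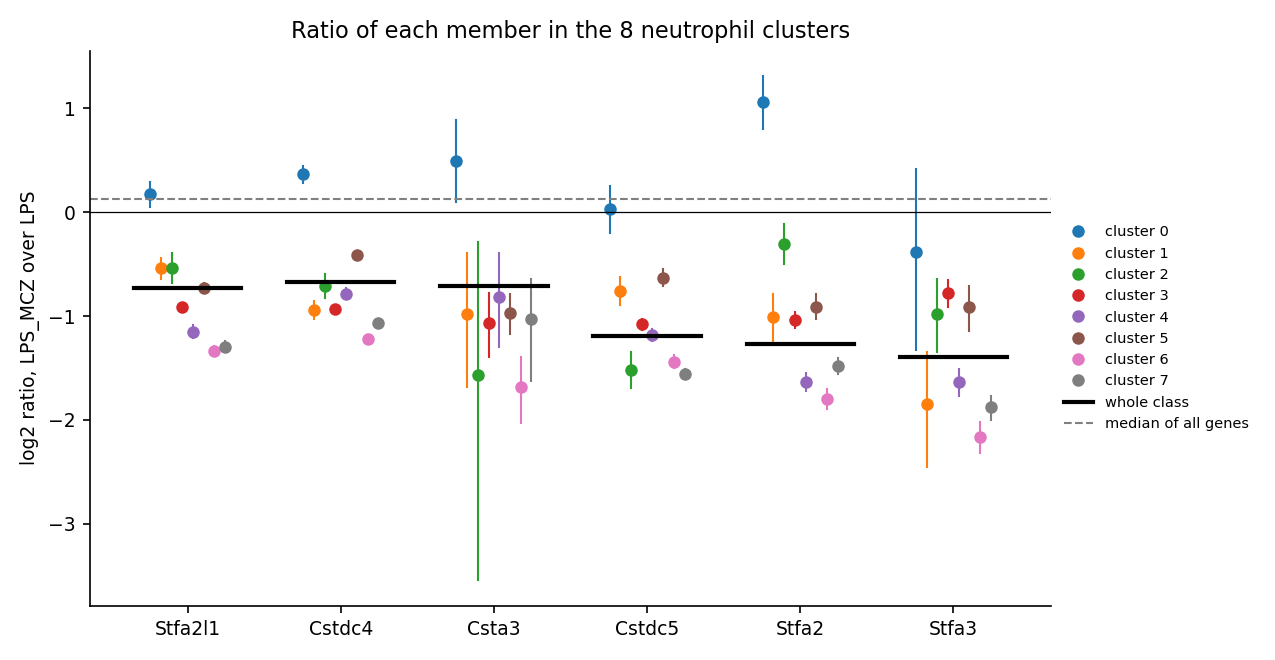
Log2 ratio of LPS_MCZ over LPS of each of the 6 genes in each of the 8 neutrophil clusters (colored points, bars are 95% counting intervals), in the whole class (black line) and as the median of all genes (dashed line, 0.12). All clusters other than cluster 0 lie below 0 for every gene.

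The interferon-response markers were also lower in LPS_MCZ over the whole class. Of 8 markers in that list, 5 were lower by more than 0.5 in LPS_MCZ neutrophil-like cells and none was higher by as much, with a median of −0.84. Their summed level was 9052 CPM in LPS against 6196 CPM in LPS_MCZ, and it was lower in LPS_MCZ in each of the 8 clusters. This included cluster 0 (16373 and 12074 CPM), where the summed members were higher in LPS_MCZ. Across states the summed list was highest in chemokine-high cells, where the minus strand genes were lowest. The summed members were highest in intermediate cells. The granule-gene-high list had 2 of 10 markers lower and 2 higher, the chemokine-high list 3 lower and 2 higher, and the mature chemokine-low list none of 8 lower and 1 higher. The part of interferon response in the members' difference was not tested.

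Genes most like the summed members across the 16 points, among 611 genes of at least 200 CPM in both libraries, were Ifitm2 (r = 0.93), Plac8 (0.89), Nsd3 (0.85), Ifi27l2a (0.83), Gmfg (0.81), Chmp4b (0.77), Osbpl9 (0.74) and Pag1 (0.73). Ifitm2 and Ifi27l2a are known as interferon-inducible, but the most and least alike genes were not compared for interferon response. The least alike were Sp140 (−0.78), Cd24a (−0.71), Chil3 (−0.71), Iqsec1 (−0.62) and Cybb (−0.58), of which Chil3 and Cd24a are transcribed in young neutrophils.

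The other genes of the family were scarce or differed less. Cstdc6, beside Cstdc5 on the minus strand, was at 57.9 CPM in LPS against 41.7 CPM in LPS_MCZ (−0.47 [−0.57, −0.38]). Like the minus strand members it was lowest in chemokine-high cells, at 33.7 and 23.8 CPM against 67.4 and 52.6 CPM in mature chemokine-low cells. Unlike them, Cstdc6 differed less between the libraries than every plus strand member (−0.67 to −0.73). Stfa1, on the plus strand, had 112 and 57 UMIs in neutrophil-like cells (2.40 and 1.53 CPM), and Csta1 and Csta2 had at most 26 UMIs in a whole library. The ratio of Stfa1 was −0.43 [−1.14, −0.18], an interval that also holds the ratios of the plus strand members. At such levels the pseudocount of 1 CPM weighs on the ratio. Of 19 listed other stefins and cystatins, 13 symbols were in the files, 5 of the rest being older names of locus genes, and 5 were measured in neutrophil-like cells. None of those 5 was lower by more than 0.5 and 1 was higher. Cst3, the secreted cystatin C, was that gene, at 467.2 and 782.2 CPM (0.74 [0.72, 0.77]), while Cstb, the stefin B gene, was at 412.6 and 372 CPM (−0.15 [−0.18, −0.12]).

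The cysteine proteases on a fixed list went both ways. Of 11 listed, 9 were measured, none was lower by more than 0.5 and 3 were higher, with a median of 0.38. Ctsc, the dipeptidyl peptidase that activates granule serine proteases, was at 63.6 CPM in LPS against 109.7 CPM in LPS_MCZ (0.78 [0.72, 0.86]), and the aminopeptidase Ctsh at 31.4 and 49.0 CPM (0.63 [0.54, 0.74]). The lysosomal proteases Ctsb (221.9 and 306.7 CPM, 0.47), Ctsz (171 and 179.5 CPM, 0.07), Ctss (249.3 and 202.1 CPM, −0.30 [−0.34, −0.26]) and Ctsl (53.8 and 44.7 CPM, −0.26 [−0.36, −0.18]) were within 0.5 of no difference, the last 2 on the lower side with the members.

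Among 11 serine proteases and inhibitors, 8 were measured, 2 were lower by more than 0.5 and 1 was higher, with a median of −0.32. Wfdc17, a small whey acidic protein domain gene of myeloid cells, was at 8614 and 4371 CPM (−0.98 [−0.99, −0.97]), and the serpin gene Serpinb2 at 65.2 and 43.8 CPM (−0.56 [−0.66, −0.49]). Wfdc21 (2950 and 2401 CPM, −0.30), the secreted elastase inhibitor Slpi (280.8 and 265 CPM, −0.08), the neutrophil elastase inhibitor Serpinb1a (99.2 and 78.4 CPM, −0.34) and Serpinb6a (11.0 and 13.8 CPM, 0.30) lay within 0.5.

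Outside the neutrophil-like cells the members were seen in every named class, at lower levels. In LPS the summed level was 1009 CPM in T cell-like, 891.8 CPM in NK cell-like, 517.1 CPM in B cell-like, 341.8 CPM in classical monocyte-like and 276.9 CPM in alveolar macrophage-like cells. In LPS_MCZ the same classes were at 614.5, 641.6, 145.7, 186 and 128.7 CPM. Platelet-like cells (6219 and 2870 CPM), vascular endothelial-like cells (4141 and 1784 CPM) and erythroid-like cells (4017 and 2077 CPM) came closest to the neutrophil-like cells. Not all groups shared the lower level in LPS_MCZ. The 20 basophil or mast-like cells were at 95.7 and 497.4 CPM, with 0.55 and 1.90 member UMIs per 100 UMIs of S100a8 and S100a9. Of the 5 unnamed clusters, 4 were lower in LPS_MCZ, and cluster 11 (405 and 190 cells of low depth, nearest to T cells by markers) was higher, at 568.1 CPM [514.7, 625.6] and 1889.6 CPM [1751, 2037]. The platelet-like, vascular endothelial-like and erythroid-like cells also held the most S100a8 and S100a9, the leading neutrophil transcripts, at 66305 to 132105 CPM in LPS, against 17292 CPM in T cell-like and 179686 CPM in neutrophil-like cells.

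The ratio of member UMIs to S100a8 and S100a9 UMIs sets these levels beside the neutrophil transcripts in the same cells. Neutrophil-like cells had 4.52 member UMIs per 100 UMIs of S100a8 and S100a9 in LPS and 2.76 in LPS_MCZ. The 11 other classes with at least 50 cells over both libraries ran from 3.99 (classical monocyte-like) to 7.51 (conventional dendritic-like) in LPS and from 1.22 (fibroblast-like) to 4.00 (vascular endothelial-like) in LPS_MCZ. In these 12 classes, the neutrophil-like included, the ratio was lower in LPS_MCZ. Against the counting interval of the neutrophil-like cells, 8 of the 11 lay above, 1 below and 2 overlapped it in LPS. In LPS_MCZ 3 lay above, 6 below and 2 overlapped. These intervals leave out the spread between cells, so the counts do not measure whether the classes differ. The neutrophil clusters themselves spread more widely, from 2.83 (cluster 7) to 11.5 (cluster 0) in LPS and from 0.984 (cluster 7) to 15.6 (cluster 0) in LPS_MCZ. Whether any of these classes transcribed the genes was not tested.

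T cell-like cells had 5.84 member UMIs [5.68, 5.99] per 100 UMIs of S100a8 and S100a9 in LPS and 3.70 [3.51, 3.89] in LPS_MCZ. Removing the cells with the highest doublet scores brought the LPS value to 3.64 and the log2 ratio of the summed level in neutrophil-like over T cell-like cells from 3.01 to 4.97 in LPS and from 2.86 to 3.53 in LPS_MCZ. The T cell-like level thus fell when cells with high doublet scores were left out. By gene, Cstdc4 made up 34.6% and 44.7% of the member UMIs of T cell-like cells, against 40.2% and 45.7% in neutrophil-like cells. Cstdc5 made up 29.8% and 19.4%, against 21.9% and 17.4%. Keratinocytes are another cell type known to transcribe stefin A. Of their 5 markers, 5 were at 0 in LPS neutrophil-like cells and 4 in those of LPS_MCZ, and all kept cells together held 3 and 30 UMIs of the 5.

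**Figure D5:**
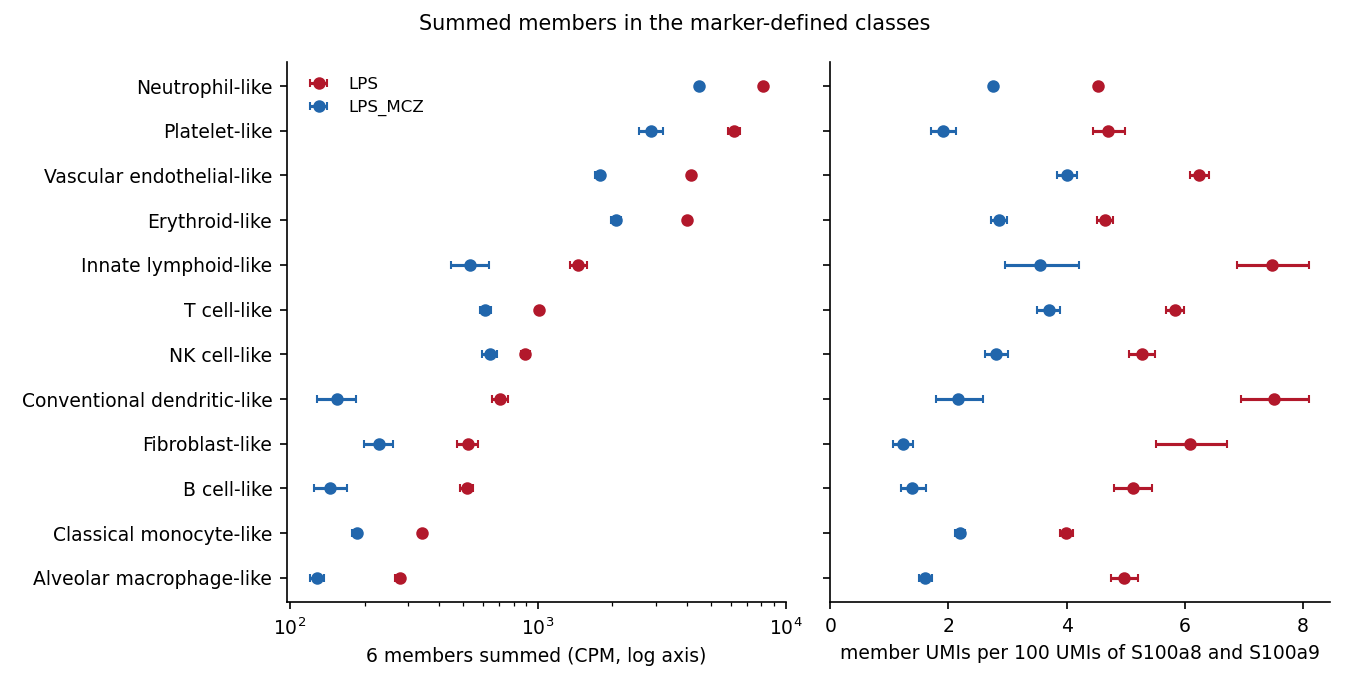
The 12 marker-defined classes of at least 50 cells, with the summed level of the 6 genes (left, CPM, log axis) and member UMIs per 100 UMIs of S100a8 and S100a9 (right) in LPS (red) and LPS_MCZ (blue); points are summed cells of 1 library and bars are 95% counting intervals. The 12 classes shown lie lower in LPS_MCZ on both axes; basophil or mast-like cells and unnamed clusters are not shown.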

How the data were processed

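Each deposited matrix gave the authors' raw UMI counts by gene and cell barcode, made with Cell Ranger 7.0.0 per the file headers; bcl2fastq 2.20 and the mm10 build are per the submitters' processing notes. How intronic reads were treated is not given in the sources used here. Deposited totals were 12577 barcodes and 90597705 UMIs for LPS, and 8500 and 68467793 for LPS_MCZ. The 6 genes and the gene lists were chosen with earlier results of these data known.

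Cells with at least 200 genes, 500 UMIs and at most 20% mitochondrial UMIs were kept. Scrublet in scanpy 1.11.5 called 4 and 2 doublets against expected rates of 9.66% and 6.65%, so it did not work, and an alternative removed the highest scores at those rates. Both libraries were clustered together (2000 variable genes without 10 stefin A genes, 30 components, 15 neighbours, Leiden resolution 1.0). To be named, a cluster needed 3 listed markers of a class raised by 1 or more (log2, pseudocount 20 CPM) against the lower quartile of the clusters. A cluster stayed unnamed if another class had more markers among its 10 leading genes, or if its median UMI count was under 1/3 of that of all cells (5 of 28); how these limits were applied was settled after the clusters were seen.

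UMIs were summed per class and library. The pseudocount of log2 ratios was 1 CPM. Exact intervals were Poisson, Clopper-Pearson or conditional binomial at 95%, without the pseudocount. UMIs of 1 pool of mice leave out variation between mice, and intervals on UMIs also leave out variation between cells. Counts were simulated for 10609 genes with 200 changed by 1 on the log2 scale. Intervals held the true value in 95.4% of genes, and 88.0% of the changed genes passed 0.5. The counts were drawn as Poisson, as the intervals assume, so this checked the calculation and not the spread between cells or mice. Named genes were the 6 by symbol, at most 6 per fixed list by UMIs, and the 8 most and 5 least alike. Alternatives were other cell filters, doublet removal, clusterings, totals, weights, pseudocount, depth and free RNA subtraction, and, added after seeing the data, leaving out shared barcodes, cells split by chemokine share into 3 equal sets and a state limit of 1.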

Additional observations from a re-analysis of the deposited data

Results flagged for a closer look

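Cstdc4 changed sides between the libraries in 1 contrast of states. Its level in intermediate cells was above that in chemokine-high cells in LPS (log2 ratio 0.397) and slightly below it in LPS_MCZ (−0.0894). With 1 library per group the difference between these ratios was not tested.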

How the results depend on the processing

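The lower level of all 6 genes in LPS_MCZ neutrophil-like cells kept its direction in all 66 values under the alternatives (−1.74 to −0.60). Their summed log2 ratio (−0.859) was −0.8685 with the stricter cell filter, −0.8727 with the highest doublet scores removed, −0.8688 with the stefin genes kept in clustering, −0.896 with S100a8, S100a9 and the 6 genes left out of the total, −0.807 with cells weighted equally, −1.053 with states weighted equally and −0.9626 with free RNA subtracted. The summed level in mature chemokine-low over chemokine-high cells of LPS (−0.0124) turned to 0.448 with the stricter filter, 0.735 with doublet scores removed, 0.302 at resolution 0.5, 0.0681 with libraries clustered separately, 0.229 with those genes left out of the total, 0.0536 with cells weighted equally, 0.328 with 3 sets by chemokine share and 0.488 at a state limit of 1, and was −0.450 with the stefin genes kept. In LPS_MCZ (−0.413) it turned to 0.129 with the stricter filter and 0.227 at resolution 0.5, and was −0.180 with doublet scores removed, −0.789 with the stefin genes kept, −0.140 with separate clustering, −0.135 with the changed total and −0.124 with the 3 sets. For Stfa2l1 this contrast turned in LPS to 0.246 (stricter filter), 0.440 (doublet scores), 0.0388 (resolution 0.5), 0.131 (3 sets) and 0.189 (limit of 1), and in LPS_MCZ to 0.158 (resolution 0.5); for Cstdc4 it turned in LPS to 0.0160 (stricter filter) and 0.0626 (doublet scores). The cause was not tested.

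Neutrophil-like over T cell-like cells was 3.138 in LPS with the stricter filter and 4.970 with doublet scores removed, and 3.528 in LPS_MCZ with the latter. Member UMIs per 100 of S100a8 and S100a9 in T cell-like cells were 5.390 and 3.635 in LPS under the same settings, and 3.471 in LPS_MCZ with separate clustering. At 1000 UMIs per cell, 70.85% and 60.60% of neutrophil-like cells had a member UMI. No paired analysis was possible because each group was 1 library, and none could be left out. Counting intervals are narrow at this depth, and 1 pool of mice per group limits every comparison.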
